A study of Saccharomyces cerevisiae with 15 samples.

Results

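The cytosolic Hsp70 and Hsp110 family of the budding yeast *Saccharomyces cerevisiae* comprised 9 genes here: SSA1 (YAL005C), SSA2 (YLL024C), SSA3 (YBL075C), SSA4 (YER103W), SSB1 (YDL229W), SSB2 (YNL209W), SSE1 (YPL106C), SSE2 (YBR169C) and SSZ1 (YHR064C). They were taken by gene name from the platform annotation, and all 9 were among the 5588 yeast genes measured. Every probe set of these genes was called present on every array. SSB1 had 2 probe sets and each of the others had 1.

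Biotin-labelled copies of total RNA, which had been extracted by the hot phenol method, were hybridized to 15 one-colour Affymetrix arrays, 3 in each of 5 groups. The groups were y1y8 with arsenate (AsV) for 60 min, yap1 with arsenate for 60 min, yap8 with arsenate for 60 min, wild type with arsenate for 60 min, and wild type without an agent at 0 min. Arsenate is the pentavalent oxyanion of arsenic and resembles phosphate. Yap1 is a regulator of the oxidative stress response, Yap8 (gene ARR1) is a regulator of arsenic resistance genes, and y1y8 stands for loss of both. A dose of 2 mM appears only in the design text of the series, which speaks of growth in arsenate until exponential phase and of double mutant cells carrying plasmids, empty or with YAP1 or YAP8. The labels give neither the dose nor a plasmid, so it is not settled whether either applies to these arrays. The untreated cells were taken at 0 min and no untreated group at 60 min was analysed here, so arsenate and the hour of further culture cannot be told apart. All mutant arrays came from treated cells. Nothing in the labels says whether the replicates were separate cultures, so p-values measure the spread between these arrays, which may be technical. The arrays measured bulk RNA, so fewer cells holding a transcript and less of it in each cell cannot be told apart.

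Hsp70 chaperones bind exposed hydrophobic stretches of proteins and release them in a cycle of ATP hydrolysis that J proteins start and nucleotide exchange factors complete. In the yeast cytosol the Ssa proteins carry general folding, the Ssb proteins act at the ribosome on chains that are still being made, and the Hsp110 proteins Sse1 and Sse2 are exchange factors for both. Ssz1 is an atypical Hsp70 that forms the ribosome-associated complex with the J protein Zuo1. SSA3, SSA4 and SSE2 are known as heat- and stress-inducible genes under Hsf1 and Msn2/Msn4, whereas the genes of the ribosome-bound Hsp70s are known to be regulated much like ribosomal protein genes.

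The deletion labels were checked first. YAP1 signal, after quantile normalization between arrays, was 643, 573 and 550.4 in y1y8, 502, 627 and 660.3 in yap1, 3194, 3041 and 3779 in yap8, and 3325, 3602 and 2911 in treated wild type. YAP1 was still called present on the arrays of yap1 and y1y8. ARR1 was called absent on all arrays of y1y8 and yap8. Per array, 98.4% to 99.3% of yeast probe sets were called present, and the median deposited signal of yeast probe sets was 548 to 934. Untreated replicate 2 stood apart from the other untreated arrays. Its log2 differences from replicates 1 and 3 had an SD of 0.374 and 0.351 across genes, against 0.228 between replicates 1 and 3. Without it, treated over untreated wild type had 8 members called, as with all arrays, and 4550 genes. Replicate 3 of y1y8 also stood apart, with an SD of 0.298 and 0.293 against replicates 1 and 2, and of 0.193 between these.

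In wild-type cells the family split under arsenate. The inducible genes SSA3, SSA4 and SSE2 rose 4.22-fold to 18.8-fold, and the ribosome-bound members SSB1, SSB2 and SSZ1 fell by 1.07 to 1.85 on the log2 scale. These 6 directions and calls held under each of 4 scalings between arrays. SSA1 and SSE1 were 1.37-fold and 1.36-fold higher under quantile normalization, but that direction was lost or turned under other scalings. In all, 5 of the 9 members were higher and 3 lower in treated wild type. In the same test (limma, Benjamini-Hochberg over all genes, threshold 0.05) 81.2% of the 5588 genes were called, 41.9% higher and 39.2% lower, so a call as such did not set the members apart. The median log2 change was 0.45 over the 9 members and 0.03 over all genes. With each array centred on the median of all its probe sets, of the calls over all genes 34.2% were higher, against 51.7% with quantile normalization, and 3 members were higher and 4 lower. Only 5638 of the 10928 probe sets were assigned to yeast genes. The median signal of an array was 46.2 to 101.6 over all probe sets and 548 to 934 over yeast ones. This centring is thus set at a signal far below the yeast median.

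**Figure D1:**
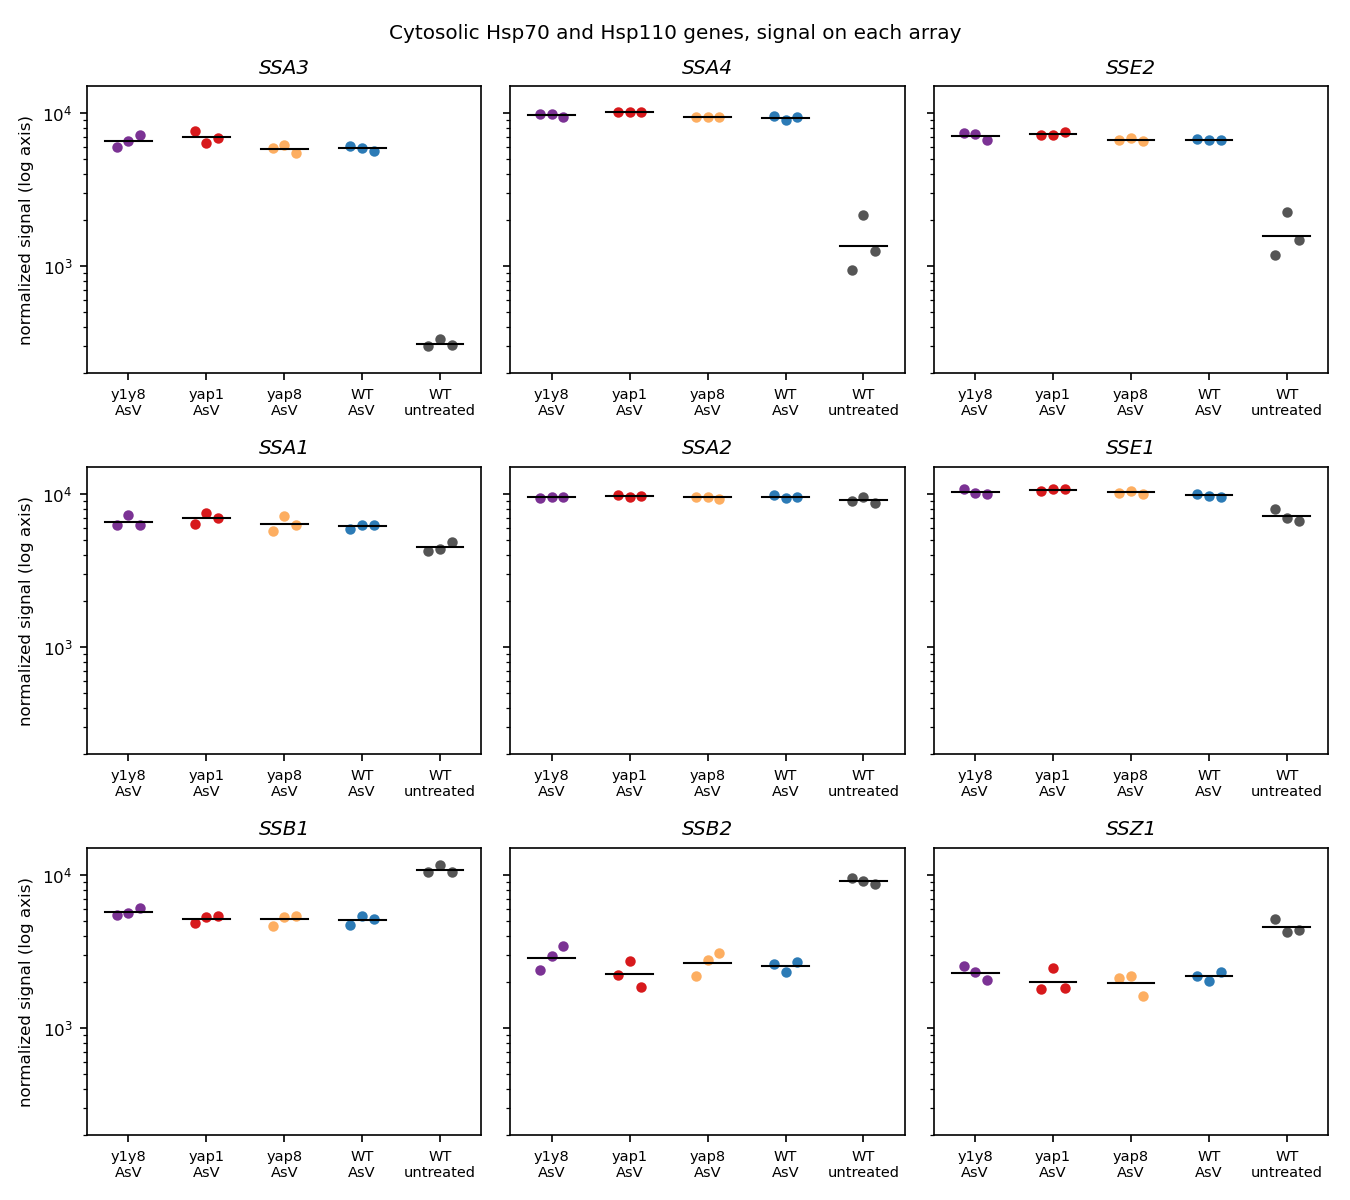
Quantile-normalized signal (log axis) of the 9 genes on each of 15 arrays, with a point per array and a line at the mean of each group of 3, from y1y8, yap1, yap8 and wild type under arsenate at the left to untreated wild type at the right. SSA3, SSA4 and SSE2 lie higher in all 4 treated groups and SSB1, SSB2 and SSZ1 lower, whereas the offsets of SSA1, SSA2 and SSE1 depend on the scaling between arrays (SSA1 0.46 with quantile normalization and -0.34 with median centring). Levels of different genes are not comparable, since each comes from its own probes.

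SSA3 encodes an inducible cytosolic Hsp70. Its normalized signal was 6038, 5939 and 5615 in treated wild type, against 299, 332 and 304.0 in untreated wild type. The treated arrays were all far above the untreated ones, which lay close together. The log2 change was 4.23 ± 0.08 (SE, n = 3 arrays a group), or 18.8-fold with a 95% interval of 16.6 to 21.4 (limma adjusted p = 9.93e-14). Its rise had rank 24 among the 5588 genes. In untreated cells 20.1% to 22.2% of genes had a lower signal than SSA3, and in treated wild type 96.3% to 96.8% did. The authors' deposited table gave a smaller fold for this gene, 10.03 with bounds of 7.51 and 15.04.

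SSA4 encodes the other strongly inducible Hsp70 of the cytosol. It read 9507, 9035 and 9476 in treated wild type, against 939.8, 2149.7 and 1246 in untreated wild type. The groups did not overlap, but untreated replicate 2 was well above the other untreated arrays. SSA4 changed by 2.78 ± 0.20 on the log2 scale (6.86-fold, 95% interval 5.09 to 9.26, limma adjusted p = 1.96e-08). Without untreated replicate 2 it was 3.11. The authors' deposited table gave 6.14-fold with bounds of 4.44 and 9.96. On the treated arrays of all genotypes SSA4 lay at 70.1% to 88.9% of the highest signal of its array, and whether such signals still followed the amount of RNA was not tested.

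SSE2 encodes the inducible Hsp110. Its signal was 6734, 6630.4 and 6615 in treated wild type, against 1182, 2258 and 1473 in untreated wild type. Untreated replicate 2 was again the highest of its group, and no untreated array reached the treated ones. The log2 change was 2.08 ± 0.16 (4.22-fold, 95% interval 3.32 to 5.37, limma adjusted p = 4.18e-08), and 2.34 without untreated replicate 2. In the authors' deposited table the fold was 4.09 with bounds of 3.03 and 6.3.

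The constitutive Ssa and Sse genes, whose proteins growing cells already hold in quantity, gave smaller changes. SSA1 read 5878, 6260 and 6305 in treated wild type, against 4222, 4401 and 4845 in untreated wild type. SSE1, the constitutive Hsp110, read 10063, 9714 and 9543 in treated wild type, against 7991, 6983 and 6615 in untreated wild type. For both genes each treated array was above each untreated one after quantile normalization. The log2 change was 0.46 ± 0.10 for SSA1 (95% interval 0.25 to 0.66, limma adjusted p = 0.000606), but it was -0.34 with median centring on all probe sets (adjusted p = 0.0542), -0.0023 with centring on yeast probe sets (adjusted p = 0.989) and 0.17 without scaling (adjusted p = 0.36). For SSE1 it was 0.45 ± 0.07 (limma adjusted p = 3.47e-05), against -0.31 (adjusted p = 0.0508), 0.02 (adjusted p = 0.875) and 0.20 (adjusted p = 0.237) under the same 3 settings. Those settings moved the median of all genes to -0.37, -0.03 and 0.15. They differ only by a constant on each array, so each necessarily gave the same change relative to that median, 0.03 for SSA1 and 0.05 for SSE1. With quantile normalization these changes relative to the median were 0.42 and 0.41. The direction of both genes thus depended on the scaling and was not settled. The authors' deposited table listed SSA1 at 1.37-fold higher with bounds of 1.26 and 1.49, and did not list SSE1 or SSA2 among its 3702 probe sets. That table holds only some probe sets, so absence from it does not show equal levels.

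SSA2, the constitutive near-twin of SSA1, read 9817, 9401 and 9583 in treated wild type, against 9035, 9619 and 8708 in untreated wild type. The groups overlapped. SSA2 differed by 0.07 ± 0.05 on the log2 scale with a 95% interval of -0.04 to 0.19 (limma adjusted p = 0.197), or folds of 0.974 to 1.14. With median centring on all probe sets SSA2 was called lower, at -0.60 (adjusted p = 0.00167), while centring on yeast probe sets gave -0.26 (adjusted p = 0.0899) and no scaling gave -0.09 (adjusted p = 0.608). Centring on all probe sets put the median of all genes at -0.37. Relative to the median, SSA2 lay at -0.23 with that centring and at 0.04 with quantile normalization. SSA2 and SSE1 had a higher signal than at least 97.7% of genes on every array and lay between 63.6% and 97.4% of the array's highest signal.

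**Figure D2:**
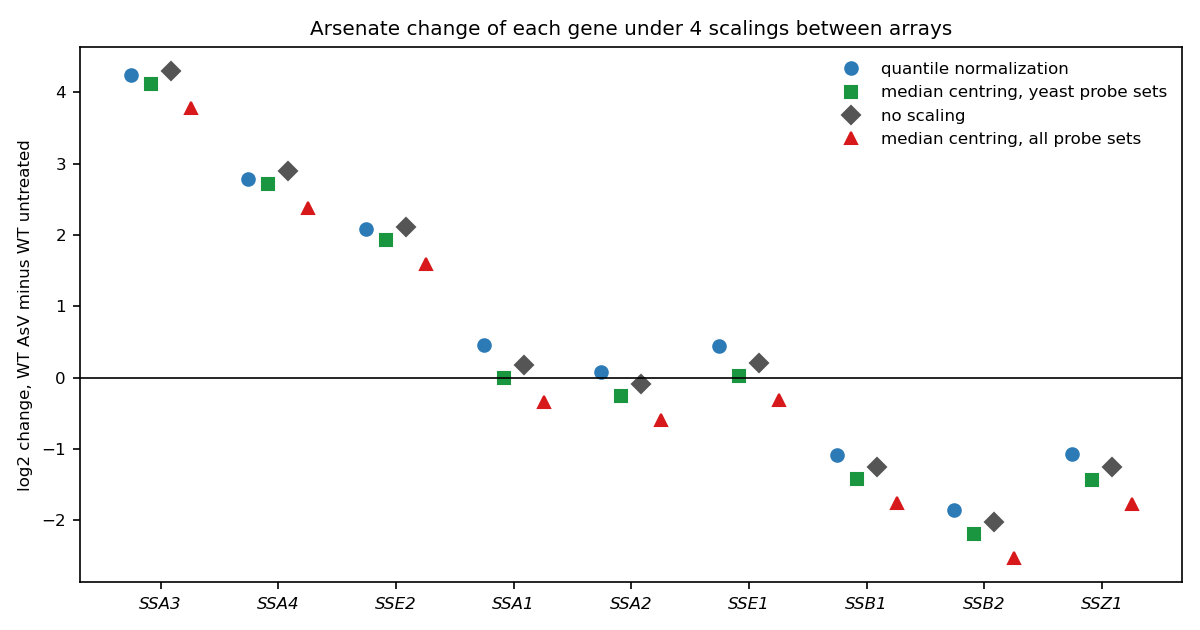
Log2 change of each of the 9 genes in treated over untreated wild type under 4 scalings between arrays. SSA3, SSA4 and SSE2 are above 0 and SSB1, SSB2 and SSZ1 below 0 with every marker, whereas SSA1, SSA2 and SSE1 lie on both sides of 0 depending on the scaling (SSA1 at 0.46, -0.0023, 0.17 and -0.34).

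SSB1 encodes a ribosome-bound Hsp70 that meets chains as they leave the ribosome. Its signal was 4731, 5387 and 5189.7 in treated wild type, against 10399, 11598 and 10399 in untreated wild type. Every treated array was well below every untreated one. The log2 change was -1.08 ± 0.08, which is 2.12-fold lower (limma adjusted p = 2.57e-08). This probe set, the brighter of its pair, carries the suffix that marks probes shared between related transcripts, so SSB2 RNA may add to it. The second SSB1 probe set read 2298, 2912 and 2864 in treated wild type, against 7068, 7638 and 7468 in untreated wild type. Its log2 change was -1.46 ± 0.11, or 2.76-fold lower. In untreated cells the first SSB1 probe set lay at 90.6% to 100% of the highest signal of its array. The authors' deposited table gave 2.3-fold lower for the first and 3.31-fold lower for the second probe set.

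SSB2, the near-identical copy of SSB1, read 2602, 2324 and 2709 in treated wild type, against 9583, 9117 and 8771 in untreated wild type. All treated arrays were far below the untreated ones, with little spread in either group. This was a log2 change of -1.85 ± 0.16, which is 3.60-fold lower (limma adjusted p = 1.35e-07). The authors' deposited table gave 2.76-fold lower. Only 6.12% of genes had a larger fall than SSB2, and its change was -1.85 to -2.53 under the 4 scalings. Its place relative to SSB1 was not settled, since the authors' deposited table gave a smaller fall for SSB2 than for the second SSB1 probe set.

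SSZ1, the atypical Hsp70 partner of Zuo1, read 2179, 2042 and 2321 in treated wild type, against 5124, 4256 and 4339.5 in untreated wild type. The groups were clearly apart. SSZ1 changed by -1.07 ± 0.14 on the log2 scale, or 2.09-fold lower (limma adjusted p = 8.88e-06), and the authors' deposited table gave 2.2-fold lower. Without untreated replicate 2 the log2 change was 4.28 for SSA3, 0.44 for SSA1, 0.43 for SSE1, 0.11 for SSA2, -1.03 for SSB1, -1.85 for SSB2 and -1.11 for SSZ1.

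The changes of paralogues were also set against each other within the same arrays. The arsenate change of SSA3 minus that of SSA4 was 1.46 ± 0.21 on the log2 scale (95% interval 0.99 to 1.93), and 1.17 ± 0.13 without untreated replicate 2. For SSE2 minus SSE1 it was 1.63 ± 0.21 (1.17 to 2.09), and 1.91 ± 0.13 without that array. For SSA1 minus SSA2 it was 0.38 ± 0.11 (0.13 to 0.63), and 0.33 ± 0.13 without it. For SSB1 minus SSB2 it was 0.77 ± 0.16 (0.41 to 1.13) with the brighter SSB1 probe set and 0.38 ± 0.15 (0.05 to 0.71) with the second, while in the authors' deposited table the second SSB1 probe set fell more than SSB2 (3.31-fold against 2.76-fold). Treated and untreated values of the difference did not overlap for any of these pairs, with or without untreated replicate 2. How often this holds for other gene pairs was not examined. Since 81.2% of all genes were called in this comparison, it does not set these pairs apart. Signals of SSA4, SSA2, SSE1 and untreated SSB1 lay near the top of their arrays, and whether this narrowed the changes of these 4 genes, and so set the differences, was not tested. The authors' folds of SSA3 and SSA4, 10.03 and 6.14, were also closer together than those of 18.8 and 6.86 found here. SSA1 and SSA2, and SSB1 and SSB2, are nearly identical in sequence, so probes of one copy may bind RNA of the other, and their separate values are uncertain to that extent. No probe, protein or promoter sequence was analysed here.

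The mutants were compared with treated wild type to see whether the family depended on Yap1 or Yap8. None of the 9 genes was called in y1y8, yap1 or yap8. Over all genes limma called 20% in y1y8 against wild type, 19% in yap1 against wild type and 0.125% in yap8 against wild type. With only 9 genes and shares of this size, the lack of a call does not set the members apart. At an unadjusted p under 0.05 there were 0 members in y1y8, 1 in yap1 and 0 in yap8. The log2 differences of all members from treated wild type lay between -0.18 and 0.24. Without y1y8 replicate 3, no member was called in y1y8 and 1013 genes were, and SSB2 stood at 0.06 there, against 0.18 with all arrays. A p above the threshold does not show equal levels, and the intervals give what these arrays allow. The authors' deposited tables of yap1 and yap8 against wild type, with 553 and 25 probe sets, listed none of the 9 genes. Those tables hold only some probe sets and intensities other than those used here, so absence from them does not show equal levels.

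**Figure D3:**
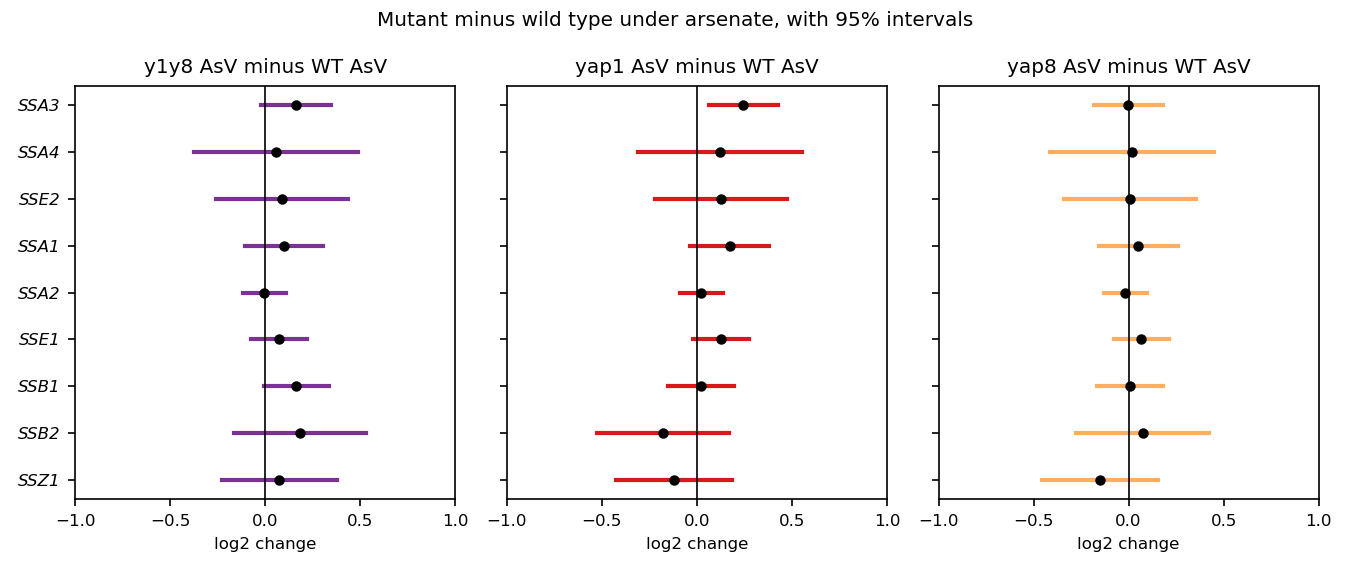
Log2 difference of y1y8, yap1 and yap8 from wild type, all under arsenate, for each of the 9 genes, with 95% intervals (3 arrays a group, quantile normalization). All points lie between -0.18 and 0.24, and only the interval of SSA3 in yap1 leaves out 0.

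SSA3 read 5996, 6588 and 7151 in y1y8, 7668, 6339 and 6883 in yap1, 5939, 6137 and 5514 in yap8, and 6038, 5939 and 5615 in treated wild type. All yap1 arrays were above all wild-type arrays, and the other mutants overlapped wild type. The share of all genes whose mutant and wild-type arrays lay apart in this way was not counted. Such a gap, here or below, therefore does not set a gene apart. In yap1 the log2 difference of SSA3 was 0.24 ± 0.08 (95% interval 0.06 to 0.43, limma adjusted p = 0.0619), just above the threshold and so not called. It was called when the spread was fitted with a trend and robustly (adjusted p = 0.0385) without yap1 replicate 2 (0.31, adjusted p = 0.034) and when untreated replicate 2 was left out of the pooled spread (0.24, adjusted p = 0.0487). In y1y8 it was 0.16 (-0.02 to 0.35, adjusted p = 0.197) and in yap8 -0.00091 (-0.18 to 0.18, adjusted p = 1).

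SSA4 read 9869.5, 9817 and 9476 in y1y8, 10214, 10136.5 and 10136.5 in yap1, 9401, 9476 and 9476 in yap8, and 9507, 9035 and 9476 in treated wild type. Only the yap1 arrays lay apart from wild type, by a small step. The log2 difference was 0.06 in y1y8 (-0.37 to 0.49), 0.12 in yap1 (-0.31 to 0.55) and 0.02 in yap8 (-0.41 to 0.45). SSE2 read 7361, 7243 and 6657 in y1y8, 7126, 7218 and 7479.7 in yap1, 6645, 6898 and 6544 in yap8, and 6734, 6630.4 and 6615 in treated wild type. Its log2 difference was 0.09 in y1y8 (-0.26 to 0.44), 0.13 in yap1 (-0.22 to 0.48) and 0.01 in yap8 (-0.34 to 0.36). The SSE2 arrays of yap1 lay above those of wild type and the other mutants overlapped them. The spread behind these intervals is pooled over all 5 groups. Without untreated replicate 2 the intervals of SSA4 were narrower, at -0.12 to 0.24 in y1y8, -0.06 to 0.30 in yap1 and -0.16 to 0.20 in yap8. Those of SSE2 were then -0.07 to 0.25 in y1y8, -0.04 to 0.29 in yap1 and -0.16 to 0.17 in yap8, and neither gene was called.

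SSA1 read 6230.2, 7284 and 6275 in y1y8, 6348, 7524 and 6951 in yap1, 5715, 7151 and 6305 in yap8, and 5878, 6260 and 6305 in treated wild type. The yap1 arrays did not overlap wild type, but the log2 difference of 0.17 (-0.04 to 0.38) was not called (limma adjusted p = 0.24). The same held for SSE1, which was 9924 to 10729 in y1y8, 10513 to 10729 in yap1, 10063 to 10513 in yap8 and 9543 to 10063 in treated wild type, with a log2 difference of 0.13 in yap1 (-0.02 to 0.27, adjusted p = 0.227). For SSA2 the log2 differences were -0.0042 in y1y8, 0.02 in yap1 and -0.02 in yap8, with intervals that ran from -0.13 at the lowest to 0.13 at the highest.

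Among the ribosome-bound members, SSB1 read 5454, 5636 and 6055 in y1y8, 4845, 5305 and 5365 in yap1, 4670.1, 5320.2 and 5403 in yap8, and 4731, 5387 and 5189.7 in treated wild type. With this brighter probe set the y1y8 arrays were above all wild-type arrays, and the single mutants overlapped wild type. Its log2 difference in y1y8 was 0.16 (-0.01 to 0.34, limma adjusted p = 0.169). The second SSB1 probe set read 2824 to 3428 in y1y8 and 2298 to 2912 in treated wild type, so these groups overlapped. SSB2 read 2379, 2933 and 3447 in y1y8, 2210.1, 2756 and 1862 in yap1, 2201, 2793 and 3103 in yap8, and 2602, 2324 and 2709 in treated wild type. Its log2 difference was 0.18 in y1y8 (-0.16 to 0.53), -0.18 in yap1 (-0.52 to 0.17) and 0.07 in yap8 (-0.27 to 0.42). SSZ1 was 2063 to 2527 in y1y8, 1793 to 2462 in yap1, 1624 to 2187 in yap8 and 2042 to 2321 in treated wild type, with all groups overlapping. Its log2 differences were 0.07, -0.12 and -0.15 in y1y8, yap1 and yap8.

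The comparisons among mutants share these arrays and called none of the 9 genes either. Over all genes limma called 0.0895% in y1y8 against yap1, 19.2% in y1y8 against yap8, 21.8% in yap1 against yap8, and 0.0537% for the interaction, which sets the effect of the double loss against both single effects added together. At an unadjusted p under 0.05 there was 1 member in y1y8 against yap1, 0 in y1y8 against yap8, 1 in yap1 against yap8 and 0 for the interaction. For SSB2 the log2 difference of y1y8 from yap1 was 0.36 (0.01 to 0.71, adjusted p = 0.723). SSA3 in yap1 over yap8 was at 0.25 (0.06 to 0.43, adjusted p = 0.0552). It was called with a trend and robust spread (adjusted p = 0.0347), without yap1 replicate 2 (0.31, adjusted p = 0.029) and with centring on yeast probe sets (0.36, adjusted p = 0.0437).

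The partners of these chaperones in the cytosol were described next. Of 15 genes, comprising 12 J proteins, 2 exchange factors and STI1, which hands clients from Hsp70 to Hsp90, 10 were higher and 3 lower in treated wild type, with a median log2 change of 0.43 against 0.03 over all genes. The list also counts CWC23, described below as a spliceosome protein, which was among the 10 higher. Over all genes 41.9% were called higher and 39.2% lower. With centring on all probe sets the counts were 5 higher and 4 lower, with a median of 0.01 against -0.37, so the whole distribution lay lower under that setting. APJ1, a J protein of nucleus and cytosol, read 1365, 1263 and 1348 in treated wild type, against 219.9, 195 and 202 in untreated wild type. FES1, a cytosolic exchange factor for Ssa proteins, read 8232, 8011 and 7842 in treated wild type, against 2273, 1966 and 1867 in untreated wild type. The groups of both were far apart, with log2 changes of 2.69 ± 0.06 (limma adjusted p = 3.84e-13) for APJ1 and 1.98 ± 0.08 (limma adjusted p = 3.71e-11) for FES1.

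SIS1, an essential J protein, rose by 1.12 ± 0.07, HLJ1, a J protein of the ER membrane that faces the cytosol, by 1.11 ± 0.09, and CWC23, a J protein of the spliceosome, by 1.41 ± 0.08. These held under all 4 scalings. STI1 was higher by 0.95 ± 0.05, with 0.24 under centring on all probe sets (adjusted p = 0.0871). YDJ1, the most abundant J protein of the cytosol, was higher by 0.53 ± 0.06 with quantile normalization but stood at -0.27 with that centring (adjusted p = 0.0864) and was not called without scaling (0.24, adjusted p = 0.164). DJP1, a J protein linked to peroxisomal import, stood at 0.31, with -0.03 under centring on all probe sets. SWA2, the yeast auxilin, was at 0.35, with 0.01 under the same centring. Relative to the median of all genes, DJP1 was at 0.28 with quantile normalization and 0.34 with that centring, SWA2 at 0.32 and 0.37, and YDJ1 at 0.50 and 0.09. Against a change of 1.2-fold neither DJP1 (adjusted p = 0.412) nor SWA2 (adjusted p = 0.254) was called.

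JJJ1, which acts in ribosome biogenesis, was at 0.43 (limma adjusted p = 0.0412). That call was lost without untreated replicate 2 (0.21, adjusted p = 0.219) and without treated wild-type replicates 1 (0.47, adjusted p = 0.0587) or 2 (0.34, adjusted p = 0.141). The genes that fell were SNL1, an exchange factor anchored in the ER membrane (-1.15 ± 0.08), JJJ3, which acts in diphthamide synthesis (-1.03 ± 0.20), and XDJ1 (-0.48 ± 0.13), whose call was lost without scaling (-0.30, adjusted p = 0.243) and against a 1.2-fold change (adjusted p = 0.0944). CAJ1 stood at 0.04 and JJJ2 at 0.10, and neither was called with quantile normalization, while CAJ1 was called lower with centring on all probe sets (-0.50, adjusted p = 0.000252), where it lay -0.13 from the median of all genes.

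**Figure D4:**
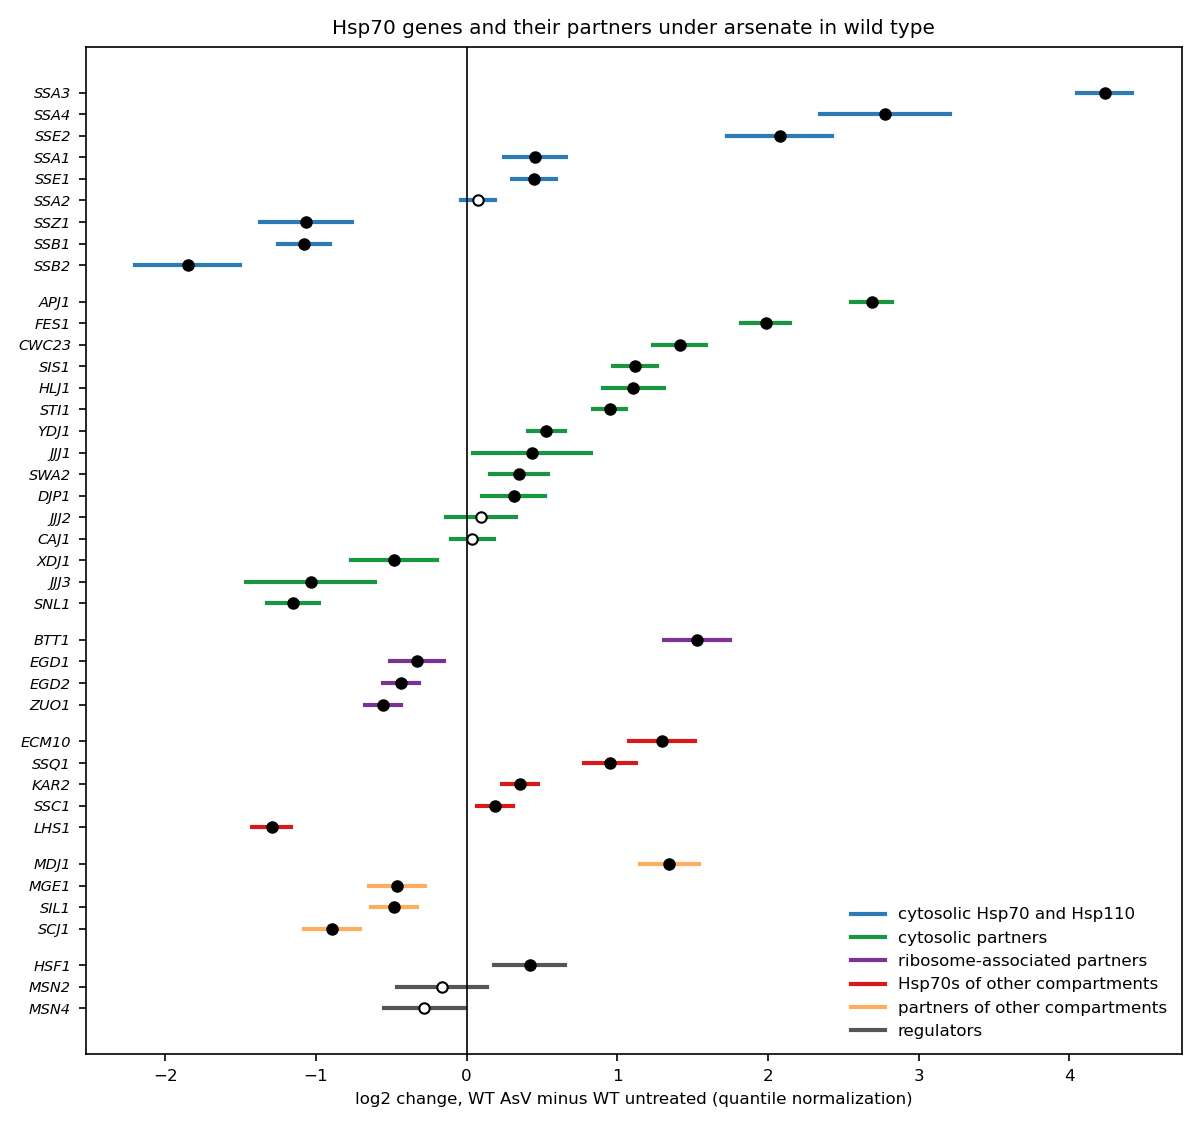
Log2 change in treated over untreated wild type of the 9 family members, their cytosolic and ribosome-associated partners, Hsp70s of other compartments with their partners, and 3 regulators, with 95% intervals (quantile normalization), where filled points were called and open points were not. APJ1 and FES1 lie among the inducible members and ZUO1, EGD1 and EGD2 on the side of the ribosome-bound members. The positions of SSA1, SSA2, SSE1, YDJ1, CAJ1, DJP1, JJJ2, KAR2, SSC1 and MSN2 turn sign under another scaling (YDJ1 0.53 against -0.27).

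At the ribosome, 1 of 4 partner genes was higher and 3 were lower under each of the 4 scalings, beside 41.9% of all genes higher and 39.2% lower. The median log2 change of the 4 was -0.38 against 0.03 over all genes with quantile normalization, and -1.23 against -0.37, -0.90 against -0.03 and -0.72 against 0.15 with centring on all probe sets, on yeast probe sets and without scaling. ZUO1, the J protein that pairs with Ssz1, read 3293, 3329.6 and 3401 in treated wild type, against 5053, 4757 and 4913 in untreated wild type. Its change of -0.55 ± 0.06 (limma adjusted p = 5.14e-07) was smaller than that of SSZ1, at -1.07 ± 0.14. EGD1 and EGD2, subunits of the nascent polypeptide-associated complex, fell by 0.33 ± 0.08 and 0.44 ± 0.06 with quantile normalization. The fall was larger under the other 3 scalings, at -0.67 to -1.18 for EGD1, -0.77 to -1.29 for EGD2 and -0.81 to -1.33 for ZUO1. Relative to the median of all genes, EGD1 stood at -0.36 with quantile normalization and -0.81 with the others. EGD1 was not called against a 1.2-fold change (adjusted p = 0.288). BTT1, the less expressed alternative β subunit of that complex, moved the other way. It read 615, 567 and 549.8 in treated wild type, against 193, 217 and 191 in untreated wild type, a change of 1.53 ± 0.10 (limma adjusted p = 8.57e-09).

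Among Hsp70s of other compartments, 4 of 5 were higher and 1 lower, beside 41.9% of all genes higher and 39.2% lower, and 2 of 5 were higher under each of the other scalings. The mitochondrial Hsp70s ECM10 and SSQ1 rose by 1.30 ± 0.10 and 0.95 ± 0.08. SSC1, the main mitochondrial Hsp70, was at 0.19 with quantile normalization and at -0.67, -0.33 and -0.16 under the other scalings. KAR2, the Hsp70 of the ER lumen, was at 0.35 and stood at -0.50 with centring on all probe sets. Relative to the median of all genes, SSC1 was at 0.16 with quantile normalization and -0.30 under the others, and KAR2 at 0.32 and -0.13. LHS1, the Hsp110-like exchange factor of the ER, fell by 1.29 ± 0.06 (limma adjusted p = 2.47e-10), in contrast to the inducible cytosolic Hsp110 gene SSE2. Of 4 partners in these compartments 1 was higher, the mitochondrial J protein gene MDJ1 (1.34 ± 0.09), and 3 were lower, beside the same shares of all genes, namely MGE1 (-0.46), SIL1 (-0.48) and SCJ1 (-0.89). The call of SIL1 was lost without scaling (-0.30, adjusted p = 0.154).

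The transcripts of the regulators moved less than those of the inducible chaperones. HSF1 was higher by 0.42 ± 0.11 (limma adjusted p = 0.00299), a call lost with centring on all probe sets (0.07, adjusted p = 0.593). MSN2 was at -0.16 (adjusted p = 0.293) and MSN4 at -0.28 (adjusted p = 0.0513). MSN2 was called lower without untreated replicate 1 (-0.32, adjusted p = 0.0274) and with centring on all probe sets (-0.50, adjusted p = 0.00065). MSN4 was called lower with 16 added to the signal (-0.27, adjusted p = 0.0476) and with a trend and robust spread (-0.28, adjusted p = 0.0448). It was also called lower without untreated replicate 1 (-0.34, adjusted p = 0.039) or 3 (-0.40, adjusted p = 0.0087) and with centring on all probe sets (-0.61, adjusted p = 0.000165). That centring moved the median of all genes to -0.37, against 0.03 with quantile normalization. Relative to the median, HSF1 was at 0.44 with it and 0.39 with quantile normalization, MSN2 at -0.13 and -0.19, and MSN4 at -0.24 and -0.31. HSF1 was not called against a 1.2-fold change (adjusted p = 0.13).

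Among the 15 cytosolic partners, a list that counts CWC23 of the spliceosome, 2 were called in y1y8, 3 in yap1 and 0 in yap8 against treated wild type. All of these calls were higher, beside 20%, 19% and 0.125% of all genes called. APJ1 read 1717, 1610.1 and 1622 in y1y8 and 1789, 1732 and 1701 in yap1, against 1365, 1263 and 1348 in treated wild type. Both mutants lay above wild type on every array. The log2 difference was 0.32 in y1y8 (limma adjusted p = 0.00275) and 0.39 in yap1 (limma adjusted p = 0.00056), calls kept whichever array was left out. They were lost without scaling, where the differences were 0.33 (adjusted p = 0.501) in y1y8 and 0.39 (adjusted p = 0.392) in yap1, against a 1.2-fold change (adjusted p = 1 and 0.333) and, in y1y8, with centring on all probe sets (0.26, adjusted p = 0.088). SWA2 in yap1 (0.32, adjusted p = 0.0245) lost its call without yap1 replicate 2 (adjusted p = 0.097) and without treated wild-type replicates 1 (adjusted p = 0.0518) or 2 (adjusted p = 0.107). It was also lost with centring on all probe sets (0.26, adjusted p = 0.166), without scaling (0.28, adjusted p = 0.717) and against a 1.2-fold change (adjusted p = 1). CWC23 was at 0.32 in y1y8 (adjusted p = 0.0158), a call lost without y1y8 replicates 1 (adjusted p = 0.0621) or 2 (adjusted p = 0.0534) or treated wild-type replicate 2 (adjusted p = 0.0722). In yap1 it was at 0.25 (adjusted p = 0.0465), with adjusted p = 0.0704, 0.129 and 0.101 without yap1 replicates 1, 2 and 3, and 0.177 and 0.0993 without treated wild-type replicates 2 and 3. Both CWC23 calls were lost with centring on all probe sets (adjusted p = 0.127 in y1y8 and 0.256 in yap1), without scaling (adjusted p = 0.509 and 0.838) and against a 1.2-fold change (adjusted p = 1 in both), and the yap1 call also with centring on yeast probe sets (adjusted p = 0.052). None of the 4 ribosome-associated partners, 5 Hsp70s of other compartments or 3 regulators was called in any mutant against wild type. SIL1 was called higher in yap1 (0.29, limma adjusted p = 0.0124) and y1y8 (0.26, adjusted p = 0.022), lost under 4 and 7 of 17 alternatives. In yap1 against yap8, APJ1, SWA2, JJJ1, JJJ2 and MSN4 (0.41, adjusted p = 0.0298) were called higher, beside 21.8% of all genes called. These calls were lost under 3 to 10 of 17 alternatives. MSN4 was called higher in y1y8 against yap8 (0.43, adjusted p = 0.0261), lost under 6 of 17.

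Likeness of profile over all 15 arrays was sought among 5069 genes outside the family that had a standard symbol and lay above the dim limit. Those most like SSA4 were VTI1, HSP42 (a small heat shock protein), GGA1, GPG1 and NTH1 (neutral trehalase), with a Pearson r of log2 signal of 0.996 to 0.998. Genes without a standard symbol were not compared. Those most like SSB1 were GAS1, RPL2B, RPL20B, RPL25 and RPL28 (r = 0.986 to 0.988), of which 4 encode proteins of the large ribosomal subunit. Those most like SSE1 were CWC15, RCH1, TPP1, MAG2 and RQT4 (r = 0.975 to 0.979). The 3 untreated arrays lie apart from the 12 treated ones for these genes and all arrays share the normalization, so r includes that common step. With quantile normalization the arsenate changes of the genes like SSA4 were 1.23 to 2.21, those of the genes like SSB1 were -1.11 to -3.13, and those of the genes like SSE1 were 0.68 to 1.44. SSA4 was also higher in untreated replicate 2 than in the other untreated arrays, and likeness without that array was not examined.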

How the data were processed

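The authors deposited a linear intensity (Signal) and a detection call for each of 10928 probe sets of each array, and the series matrix held the same intensities. Values differed in median between arrays (46.2 to 101.6), so no common scaling is apparent. Partek is named by the submitters' processing notes, with neither its version nor its role, and how probe sets were summarised is unstated in these sources. The authors' deposited tables of 3 comparisons hold signed linear folds (a score, negative where lower) with bounds, and 18 columns of per-array calls in them stayed unused. They hold only a part of the 10928 probe sets, and their folds come from the authors' own model-based intensities and not from Signal. Their folds and lists are therefore not on the same footing as the limma results.

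Probe sets were named from the platform annotation or, where it was silent, the authors' table, which gave 5638 yeast probe sets and 5588 genes. For 48 genes with several probe sets the brightest was used. Intensities were quantile normalized, floored at 1 and put on the log2 scale. A group-means model was fitted to all 15 arrays with limma 3.58.1 (lmFit, eBayes; R 4.3.3), two-sided, for 8 comparisons, with Benjamini-Hochberg adjustment over 5588 genes and a threshold of 0.05. The fit was tested on simulated data. The number of arrays limits the precision. Intervals are 95%.

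The genes named were the 9 members, all genes of 5 fixed partner and regulator lists, YAP1, ARR1, and for SSA4, SSB1 and SSE1 the 5 genes with a standard symbol of highest correlation above a dim limit of 3.29 (log2). That limit is the 95th percentile over probe sets whose gene identifier was not found among the yeast genes. The members and lists were chosen with earlier results of these data known. Alternatives were median centring on all or on yeast probe sets, no scaling, an added 16, a filter on presence, every probe set, the second SSB1 probe set, a trend with robust spread, only the groups compared, a replicate block, a test against 1.2-fold, and leaving out each array. Centring on yeast probe sets, no scaling, the second SSB1 probe set, and paralogue differences and mutant intervals without untreated replicate 2 were chosen after seeing the data. A planned search of promoters for motifs was not run, and no sequences were analysed here.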

Additional observations from a re-analysis of the deposited data

How the results depend on the processing

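Of 1269 values of the 9 genes over all comparisons and alternatives, 4 lost a call and 5 gained one with the sign kept, and 4 turned sign. Of those that turned, SSA1 (under both centrings) and SSE1 (centring on all probe sets) also lost their call. SSA2, not called with quantile normalization, gained one with centring on all probe sets. The other 1256 kept their side of the threshold, and of these 1192 kept their sign and 64, never called, changed it. Arrays were left out here only from the groups compared. The call of SSA3 in yap1 without untreated replicate 2 (limma adjusted p = 0.0487) is therefore not among these values. For SSA3, SSA4, SSE2, SSB1, SSB2 and SSZ1 in treated wild type, all alternatives kept the call, with SSA4 at 2.51 to 3.11 and SSE2 at 1.87 to 2.34 over arrays left out. Centring on all probe sets, on yeast probe sets and no scaling put the median of all genes at -0.37, -0.03 and 0.15, against 0.03 with quantile normalization, a shift shared by all genes. With median centring on all probe sets the log2 change in wild type turned to -0.34 for SSA1, -0.60 for SSA2, -0.31 for SSE1, -0.27 for YDJ1, -0.50 for CAJ1, -0.025 for DJP1, -0.21 for JJJ2, -0.67 for SSC1 and -0.50 for KAR2. With centring on yeast probe sets it was -0.0023 for SSA1, -0.26 for SSA2, -0.16 for CAJ1, -0.33 for SSC1 and -0.16 for KAR2. Without scaling it was -0.09 for SSA2 and -0.16 for SSC1, and MSN2 turned from -0.16 to 0.016. Relative to the median, SSA1 and SSE1 stood at 0.03 and 0.05, DJP1 at 0.34, YDJ1 at 0.09, JJJ2 at 0.15, CAJ1 at -0.13, SSA2 at -0.23, SSC1 at -0.30, KAR2 at -0.13 and MSN2 at -0.13 under these 3 settings. The 3 settings differ only by a constant on each array, so they share these values by construction. SSA1 was also not called against a change of 1.2-fold (adjusted p = 0.0517).

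Genes called fell in yap1 against wild type (1059 with quantile normalization) to 680 with median centring, 295 against 1.2-fold and 293 without scaling. In y1y8 against wild type (1115) they were 715, 342 and 321, in y1y8 against yap8 (1072) 712, 331 and 346, and in yap1 against yap8 (1218) 808, 355 and 407. With median centring the share of these calls that was higher was 30.9%, 30.2%, 21.3% and 27.8%, against 50.7%, 50.5%, 48.0% and 51.1% with quantile normalization, and without scaling it was 15%, 24.3%, 11.0% and 8.35%. In y1y8 against yap1 the count over arrays left out was 4 to 9, with 9 without yap1 replicate 2 against 5 with all arrays. Members called were 0 to 1 over arrays left out in yap1 against wild type and in yap1 against yap8, where 1, SSA3, was also called with a trend and robust spread and, in the second, with centring on yeast probe sets.

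Replicate numbers 1 to 3 are shared between groups, but only 6 of 30 same-numbered pairs correlated above 0.1 (-0.33 to 0.41) and 4 of 15 arrays were closest to their own number, so they share only a number. With the replicate block 8 members and 4521 genes were called in wild type and 0 members in every mutant comparison, and among named genes JJJ1 in wild type (adjusted p = 0.0536) and CWC23 in yap1 (adjusted p = 0.0521) were no longer called. Signals close to the top of an array, as for SSA2, SSA4, SSE1 and untreated SSB1, and 3 arrays a group limit what small differences can be seen.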
